A study of Drosophila melanogaster with 3 samples.

Results

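Mod(mdg4) is a family of Drosophila chromatin proteins that share an N-terminal BTB domain, which binds other BTB domains, and differ in their C-terminal ends. Its 2.2 isoform is recruited by Su(Hw) at the gypsy insulator, a DNA element that blocks an enhancer from acting on a promoter beyond it. L(3)mbt carries MBT repeats, folds that recognise methylated lysines, and is known as a brain tumour suppressor that keeps germline genes silent. A site where the BTB antibody and the L(3)mbt antibody gave peaks with nearly the same centre, and the 2.2 antibody gave none, is therefore a place where Mod(mdg4) and L(3)mbt were both recovered without a peak for the isoform that Su(Hw) recruits. These sites are called centred sites below.

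The centred sites number 939 of the 6144 BTB peaks on the long chromosome arms 2L, 2R, 3L, 3R and X (15.3%, 95% Wilson interval 14.4 to 16.2%), and of 7621 BTB peaks in all. A BTB peak was counted when it shared at least 1 bp with an L(3)mbt peak and no bp with a 2.2 peak, and when its centre lay at most 200 bp from the centre of the nearest L(3)mbt peak it met. The sites were thus chosen by the positions of the peaks in the 3 lists (the overlap, the absence of a 2.2 peak and the distance between centres), and these are described and not tested. The peak scores took no direct part, although a peak that scored too low was not listed at all.

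The peaks come from chromatin immunoprecipitation and sequencing in Kc167 cells, a line derived from Drosophila embryos, kept in serum-free medium, for which the labels name no genotype and no treatment. The 3 libraries differ in the antibody alone, which was raised against Mod(mdg4)BTB and so against all isoforms, against L(3)mbt, or against Mod(mdg4)2.2, with 1 library each. All were fixed with formaldehyde and sheared by sonication. The files list peaks and not reads, so the depth is unknown, a site with no 2.2 peak may still hold 2.2 below the caller's threshold, and no difference below has a replicate check or a test. Intervals are 95% intervals, Wilson for shares and order-statistic (binomial) for medians. They cover counting error only and take peaks as independent, which neighbouring peaks are not.

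The rule caps the distance between the BTB and L(3)mbt centres at 200 bp, and below that limit short distances were the most frequent. Of the 939 centred sites, 481 had centres at most 50 bp apart (51.2%, 48.0 to 54.4%), 705 at most 100 bp (75.1%, 72.2 to 77.7%) and 830 at most 150 bp (88.4%, 86.2 to 90.3%). The median distance was 48.5 bp (44.5 to 53.5 bp). The L(3)mbt centre lay on the side of higher positions at 463 sites and on the side of lower positions at 475, and at 1 site the centres were identical. The signed median was -1.5 bp (-8 to 5 bp), L(3)mbt minus BTB, so the distances lay about evenly to both sides.

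The limit of 200 bp cuts through a gradual decline. Among the 1747 long-arm BTB peaks that met L(3)mbt and no 2.2 peak, 481 lay at up to 50 bp, 224 at 50 to 100 bp, 125 at 100 to 150 bp and 109 at 150 to 200 bp. Beyond the limit, 92 lay at 200 to 250 bp and 77 at 250 to 300 bp. Just inside it, a site at chr3L:15065056-15066158 had an L(3)mbt centre 200 bp below its own, a BTB score of 3100 and an L(3)mbt score of 583.1. Another at chr3R:14238092-14238587 had an L(3)mbt centre 200 bp above its own, a BTB score of 123.8 and an L(3)mbt score of 408.6. Just outside, the BTB peak at chr2R:8049816-8050938 was 201 bp off with scores of 3100 for BTB and 543 for L(3)mbt. The BTB peak at chr2L:19791578-19792009 was 201.5 bp off with scores of 116.2 and 282.7 in the same order. The 4 peaks thus span much of the range of BTB scores on both sides of the limit.

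**Figure D1:**
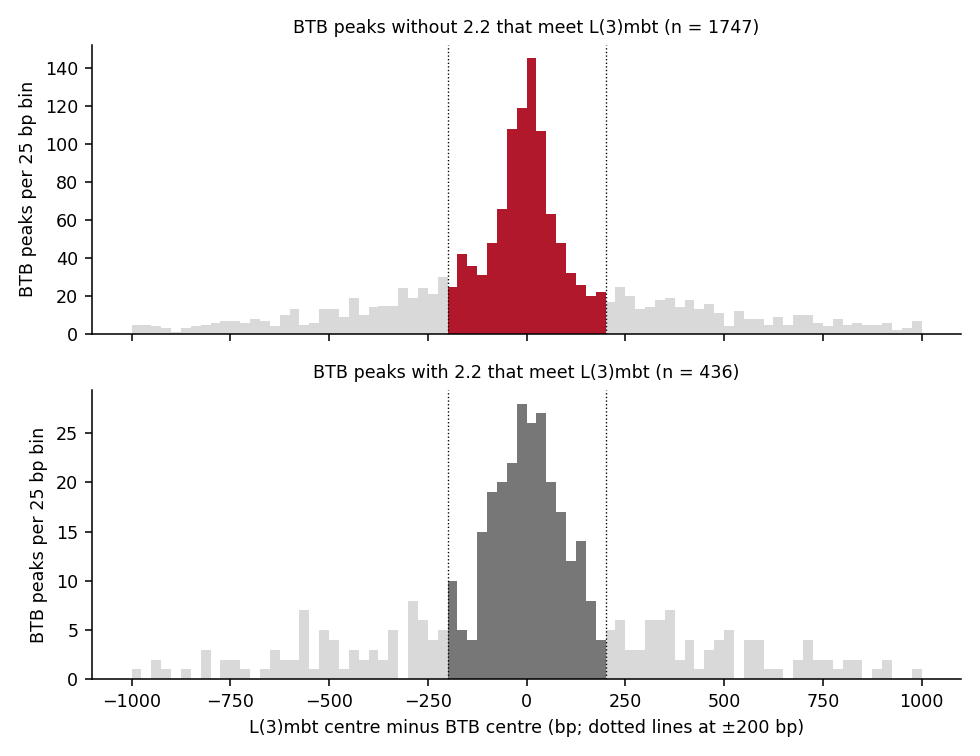
Distance from the BTB centre to the L(3)mbt centre (x axis, bp, shown to ±1000 bp) against the number of BTB peaks in each 25 bp bin (y axis), for the 1747 long-arm BTB peaks without 2.2 (top) and the 436 with 2.2 (bottom) that met L(3)mbt. Coloured bars lie within the dotted lines at ±200 bp, and both distributions are highest near 0.

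Centring was also common where 2.2 was present. Of the long-arm BTB peaks that met L(3)mbt, 939 of the 1747 without 2.2 had a centre within 200 bp (53.7%, 51.4 to 56.1%), as had 251 of the 436 with 2.2 (57.6%, 52.9 to 62.1%). The share within 50 bp was 27.5% without 2.2 and 23.6% with it. Whether these shares differ was not tested, and their intervals overlap at 200 bp. Over the L(3)mbt widths of 1000 to 1250 bp, which held the most pairs, the shares within 200 bp were 84.8% (81.8 to 87.4%) without 2.2 and 78.4% (71.6 to 84.0%) with 2.2. Above 2000 bp they were 15.4% (12.53 to 18.86%) and 13.5% (7.88 to 22.1%). The order was the other way at 1500 to 2000 bp, with 37.0% (32.1 to 42.1%) without 2.2 and 48.9% (38.7 to 59.1%) with it, and the shares were 68.9% and 69.8% at 1250 to 1500 bp. Under 1000 bp they were 90.4% (81.5 to 95.3%) without 2.2 and 72.4% (54.3 to 85.3%) with it.

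The 939 sites met 939 different L(3)mbt peaks, which are 32.5% of the 2890 on the long arms (30.8 to 34.2%). That no L(3)mbt peak held more than 1 of them follows from the rule, since no other BTB centre on these arms lay closer to a BTB centre than 440.5 bp. Of these L(3)mbt peaks, 55 met a further BTB peak (5.86%, 4.53 to 7.55%). Of the 58 further BTB peaks, 3 held 2.2. The 808 BTB peaks that met L(3)mbt off-centre without 2.2 lay at 668 L(3)mbt peaks, and at 336 of them the L(3)mbt peak met another BTB peak (41.6%, 38.2 to 45.0%). The distance that defines both classes bears on these counts, as does the width of the L(3)mbt peaks.

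At the centred sites the BTB peak mostly lay inside the L(3)mbt peak. This was so at 830 sites (88.4%, 86.2 to 90.3%), against 590 of the 808 off-centre peaks (73.0%, 69.9 to 76.0%) and 285 of the 436 with 2.2 as well (65.4%, 60.8 to 69.7%). The reverse, an L(3)mbt peak inside the BTB peak, occurred at 13 centred sites. The rule largely sets these shares, because a BTB peak of median width whose centre lies within 200 bp of that of an L(3)mbt peak of median width is contained in it. The median BTB width was 705 bp (684 to 730 bp) at centred sites, 706.5 bp (668 to 750 bp) at off-centre peaks, 894.5 bp (833 to 952 bp) at peaks with L(3)mbt and 2.2, and 603 bp (593 to 615 bp) at the 2203 BTB peaks with neither. The L(3)mbt peaks were compact, with a median of 1145 bp (1132 to 1156 bp) at centred sites, against 2050 bp (1954 to 2142 bp) off-centre and 1389 bp (1354 to 1421 bp) over all long-arm L(3)mbt peaks. Width bears on the rule, since the centre of a wide peak can lie farther from a BTB peak that it still meets. The BTB peak covered a median of 59.5% of the L(3)mbt peak at centred sites and 30.4% off-centre. The widest centred BTB peak, at chrX:19530811-19533221, spanned 2411 bp and the narrowest, at chr3R:20639474-20639845, spanned 372 bp.

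In the BTB list as a whole the centred sites were of ordinary rank, though their median score was the highest among the classes without 2.2. The score is the authors' peak caller's own value, used here only to rank peaks within a list, and scores at or above 3100, where many peaks pile up, count as tied. The median BTB score was 834.7 (708.0 to 956.2) at centred sites, against 870.3 (814.0 to 933.9) over all long-arm BTB peaks. Among the other classes without 2.2 it was 554.9 (471.7 to 665.9) at off-centre peaks and 483.8 (431.2 to 545.8) at those with neither. Where 2.2 was present it was 3100 (2262 to 3100) with L(3)mbt and 1723 (1521 to 1917) without L(3)mbt. At or above 3100 there were 286 of the 939 centred sites (30.5%, 27.6 to 33.5%), against a background of 30.7% of all long-arm BTB peaks. The share at centred sites was thus close to that of the list as a whole. In the other classes it was further from it, with 26.0% at the ceiling among off-centre peaks (23.1 to 29.1%), 50.5% among those with L(3)mbt and 2.2 (45.8 to 55.1%), 37.7% among those with 2.2 alone (35.5 to 40.0%) and 23.2% among those with neither (21.4 to 24.96%).

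The centred sites were wider than the BTB peaks with neither partner, and the share at the ceiling was higher in the wider peaks of both classes. Among BTB peaks under 550 bp wide, 0.518% of the 193 centred sites (0.0915 to 2.88%) and 2.44% of the 820 peaks with neither (1.58 to 3.74%) were at the ceiling. At 550 to 650 bp these shares were 11.6% (7.87 to 16.8%) at centred sites and 15.2% (12.3 to 18.8%) at peaks with neither. At 650 to 900 bp they were 44.0% (38.5 to 49.8%) at centred sites and 40.0% (35.6 to 44.4%) at peaks with neither, and at 900 bp or more 52.2% (46.0 to 58.2%) at centred sites and 51.8% (47.2 to 56.4%) at peaks with neither. Within a width band the intervals overlapped each time, as did those of the median BTB scores of these classes.

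In the L(3)mbt list the centred sites were also of middle rank. The median L(3)mbt score was 335.4 (305.8 to 358.5) at centred sites, against 312.8 (300.6 to 330.6) over all 2890 long-arm L(3)mbt peaks. It was 636.0 (562.4 to 703.2) at off-centre BTB peaks, 355.6 (330.2 to 408.8) at those with 2.2 and 228.3 (212.6 to 246.0) at the 975 L(3)mbt peaks that met no BTB peak. The ceiling was reached by 8 centred sites (0.852%, 0.432 to 1.67%), against a background of 1.63% of long-arm L(3)mbt peaks. So centred L(3)mbt peaks ranked above those without BTB and below those that BTB met off-centre.

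The order of centred and off-centre sites was the opposite among L(3)mbt peaks of similar width, up to 2000 bp. For widths of 1000 to 1250 bp, the median L(3)mbt score was 266.4 (248.3 to 296.1) at 530 centred sites and 192.3 (175.4 to 239.2) at 95 off-centre peaks. For 1250 to 1500 bp it was 480.1 (404.2 to 590.4) at 135 centred sites and 284.4 (187.5 to 336.5) at 61 off-centre peaks. For 1500 to 2000 bp it was 612.9 (513.2 to 713.6) at 131 centred sites and 422.8 (372.2 to 475.7) at 223 off-centre peaks. In these 3 bands the intervals of the medians did not overlap. At 2000 bp or more the medians were 857.7 (658.9 to 1037) at 77 centred sites and 1065 (976.7 to 1142) at 422 off-centre peaks, with overlapping intervals. Under 1000 bp the medians were 138.3 at 66 centred sites and 125.2 at only 7 off-centre peaks. The width bands were chosen after the overall difference had been seen, and off-centre peaks often share an L(3)mbt peak, which then counts more than once.

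The BTB scores showed no such steady order over the same bands. For L(3)mbt widths of 1000 to 1250 bp the median BTB score was 810.0 (645.9 to 937.7) at centred sites and 2766 (947.4 to 3100) at off-centre peaks. The BTB peaks had a median width of 643.5 bp at those centred sites and 1054 bp off-centre. At 1500 to 2000 bp it was 1244 (770.5 to 2277) at centred sites and 382.8 (303.9 to 507.5) off-centre, where the BTB widths stood the other way, at 1096 bp and 606 bp. In the remaining bands the intervals overlapped. The medians at centred and off-centre peaks were 990.6 and 789.8 at 1250 to 1500 bp, and 462.1 and 527.3 at 2000 bp or more. Under 1000 bp they were 1047 and 510.5, the latter from only 7 off-centre peaks.

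**Figure D2:**
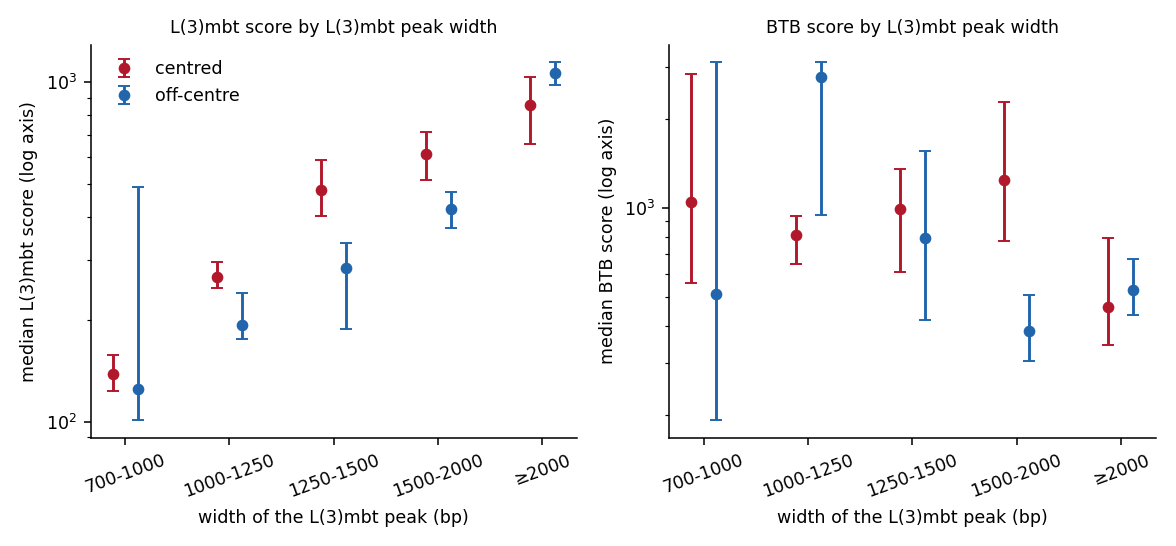
Median L(3)mbt score (left) and median BTB score (right), both on log axes, of centred sites (red) and off-centre BTB peaks without 2.2 (blue) in bands of L(3)mbt peak width (x axis, bp); bars are 95% order-statistic intervals. The centred medians of L(3)mbt lie above the off-centre ones from 1000 to 2000 bp and below at 2000 bp or more.

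The share of BTB peaks without 2.2 that were centred on L(3)mbt varied with the BTB score mainly at its low end. It was 15.8% of the 959 peaks scoring 100 to 200 (13.7 to 18.3%), 23.3% of the 902 at 200 to 500 (20.6 to 26.1%), 28.4% of the 522 at 500 to 1000 (24.7 to 32.4%), 25.5% of the 561 at 1000 to 3100 (22.1 to 29.3%) and 28.4% of the 1006 at the ceiling (25.7 to 31.3%). The off-centre share stayed between 18.2% and 22.03% over the same bands. Because of that, centred sites made up 45.2% of the peaks that met L(3)mbt in the lowest band (40.0 to 50.6%) and 57.7% at the ceiling (53.3 to 61.9%). Low-scoring peaks were also narrower, with a median BTB width of 517 bp at centred sites in the lowest band and 866.5 bp at the ceiling. By BTB width the centred share was 15.8% under 550 bp, 24.4% at 550 to 650 bp, 30.9% at 650 to 900 bp and 26.3% above. Whether score or width lay behind the differences was not tested.

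The L(3)mbt score separated the 2 kinds of site more widely. Centred sites accounted for 30.2% of the long-arm L(3)mbt peaks scoring 100 to 200 (27.3 to 33.3%), 33.4% at 200 to 500 (30.6 to 36.3%), 36.6% at 500 to 1000 (32.5 to 40.8%), 31.7% at 1000 to 3100 (27.4 to 36.5%) and 17.0% of the 47 at the ceiling (8.89 to 30.1%). L(3)mbt peaks that were met off-centre and held no centred site made up 11.95% of the lowest band (9.98 to 14.3%) and 63.8% at the ceiling (49.5 to 76.0%). The L(3)mbt peaks themselves widened over these bands, with a median of 1083 bp in the lowest and 2706 bp at the ceiling.

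**Figure D3:**
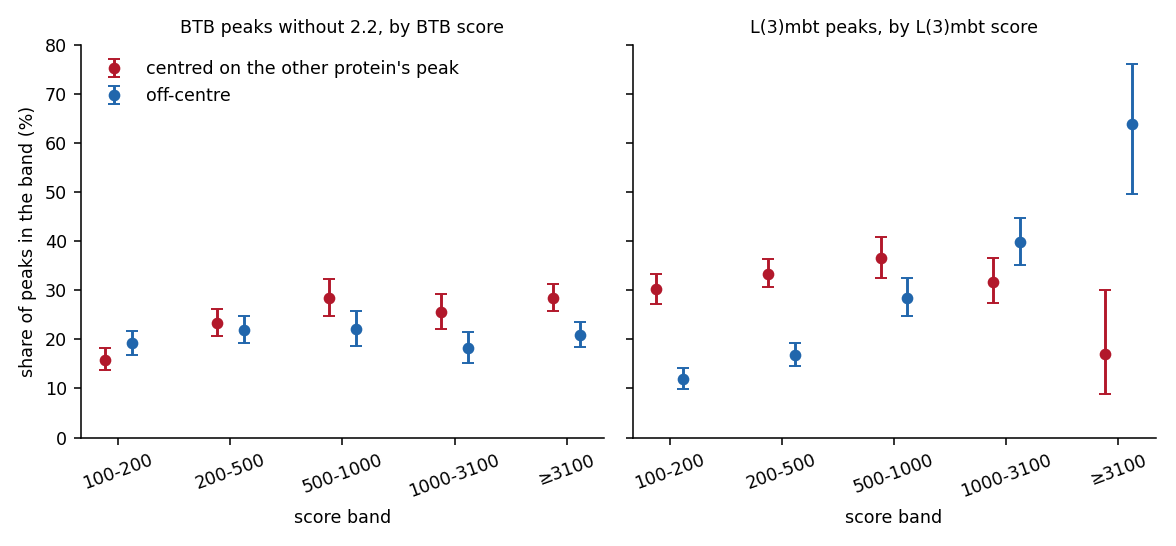
Share of peaks (y axis, %) that were centred sites (red) or off-centre without 2.2 (blue), among BTB peaks without 2.2 by BTB score (left) and among L(3)mbt peaks by L(3)mbt score (right); bars are 95% Wilson intervals. L(3)mbt peaks that held a centred site are counted as centred alone. The off-centre share of L(3)mbt peaks climbs with the score to 63.8%, while the centred share stays between 30.2% and 36.6% below the ceiling.

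Strong BTB signal and strong L(3)mbt signal came together only loosely at the centred sites. In the percentiles of each whole list, 303 sites were above 50 in both lists, 207 at or below 50 in both, 220 above in BTB alone and 209 above in L(3)mbt alone. The whole lists include peaks off the long arms. Over all long-arm peaks the median percentile was 56.4 for BTB and 52.2 for L(3)mbt, so most long-arm peaks lie above 50 in either list. The median L(3)mbt score was 242.4 at the 152 sites with BTB scores of 100 to 200 and 367.2 at the 286 sites at the BTB ceiling, with 334.7, 302.6 and 401.6 in the bands between, from low to high. Seen from the other protein, the BTB ceiling was reached by 70 of the 268 sites with L(3)mbt scores of 100 to 200 (26.1%), by 105 of 348 at 200 to 500 (30.2%), by 58 of 189 at 500 to 1000 (30.7%), by 47 of 126 at 1000 to 3100 (37.3%) and by 6 of the 8 at the L(3)mbt ceiling. The plot of the scores in both lists shows L(3)mbt scores over much of their range at most BTB scores, apart from the few at the L(3)mbt ceiling.

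**Figure D4:**
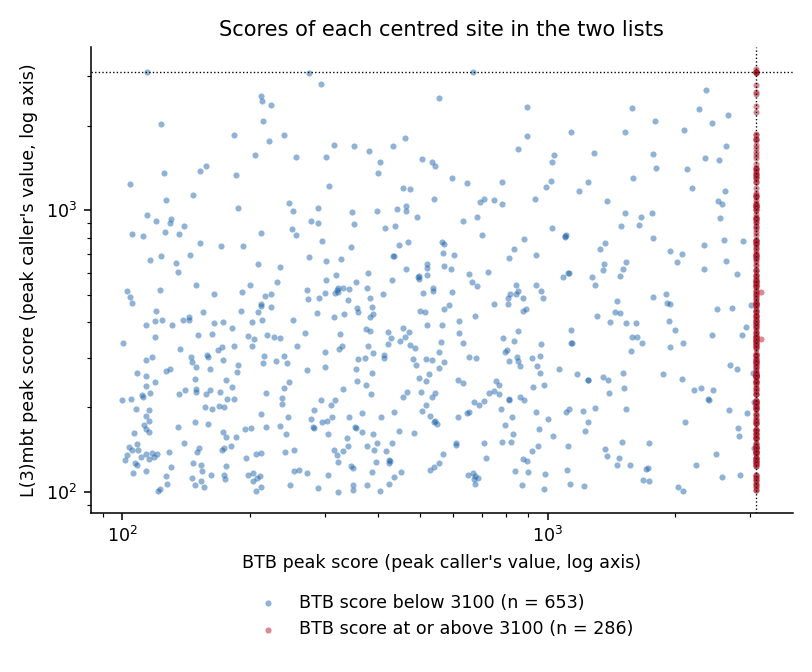
BTB score (x axis) against L(3)mbt score (y axis) of the 939 centred sites, on log axes, with dotted lines at 3100; red points are the 286 sites at or above 3100 in the BTB list. The points spread over most of the plane, and 6 sites lie at or above 3100 in both lists.

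The 6 sites at the ceiling in both lists were spread over 4 arms. At chr2L:6338173-6339641 the BTB peak of 1469 bp lay inside an L(3)mbt peak of 2464 bp whose centre was 177.5 bp lower. At chr2R:7339136-7340883 the centres were 98 bp apart, and a further BTB peak had its centre 1792 bp away. At chr2R:13030588-13031834 the L(3)mbt score of 3186.8 was the highest listed at any centred site, though tied at the ceiling here, the centres were 22 bp apart, and another centred site lay 1916.5 bp away. The site at chr3L:319041-320715 had centres 159.5 bp apart. On 3R, the site at chr3R:10921040-10921910 had centres 5 bp apart, and the one at chr3R:15474232-15474812, with a BTB peak of 581 bp, had centres 90.5 bp apart. The nearest 2.2 peak to any of the 6 was 2909 bp away, at the second site on 2R.

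Below the L(3)mbt ceiling, the strongest L(3)mbt peak among the centred sites of each arm had a BTB peak of very different rank from arm to arm. On 2L it scored 3067 at chr2L:11816235-11816893, with BTB at the ceiling, and on 2R 2783 at chr2R:2549067-2551024, again with BTB at the ceiling. On 3L it scored 1760 at chr3L:5576245-5576987, where BTB scored 220.8. On 3R it scored 2554 at chr3R:15861536-15862040, where BTB scored 212.0, and on X 3075 at chrX:4581961-4582518, where BTB scored 275.1. BTB was therefore at its ceiling on 2 arms and below the median of its list on the other 3.

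Sites at the extremes of one list alone were also found. At chr2L:14233790-14234410 BTB was at the ceiling and L(3)mbt scored 101.5, close to the lowest score listed, with centres 30 bp apart. The next lowest L(3)mbt scores under a BTB peak at the ceiling were 101.7 at chr3R:14563715-14564365 and 104.0 at chr3R:8549356-8550033. In the opposite direction, among the 78 centred sites above percentile 90 of the L(3)mbt list, BTB scored lowest at chr3L:5745014-5745591, at 114.2, inside an L(3)mbt peak of 5387 bp that reached the ceiling. That site only just met the rule, with centres 199.5 bp apart. It was followed by chrX:920521-920979, with 122.9 for BTB and 2018 for L(3)mbt, and chrX:8467951-8468603, with 125.6 and 1358 in the same order. The remaining site at the L(3)mbt ceiling without BTB at its ceiling, named after its values were seen, was chrX:3862795-3863200, where BTB scored 668.6 and the centres were 36 bp apart.

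Most centred sites, like most BTB peaks without 2.2, were not close to a 2.2 peak. A 2.2 peak lay less than 2 kb away at 52 of the 939 sites (5.54%, 4.25 to 7.19%), against a background of 7.72% of the 3950 long-arm BTB peaks without 2.2 and 8.62% of those with neither partner (7.52 to 9.87%). Among off-centre peaks the share was 7.80% (6.14 to 9.85%), and whether it differs from that of centred sites was not tested. Keeping only the peaks that score 200 or more in each list also leaves fewer 2.2 peaks to lie near. The share was then 3.18% at centred sites (2.07 to 4.87%) and 5.19% over all BTB peaks without 2.2. With 2.2 barred within 1 kb, which removes the closest sites, these shares were 2.21% (1.43 to 3.38%) and 3.01%. With peaks set to 400 bp they were 7.60% (6.09 to 9.46%) and 13.9%. The median gap was 23271 bp (21379 to 25462 bp), against 21783 bp (20698 to 22778 bp) over all BTB peaks without 2.2. The shortest gaps were 43 bp at chr3L:10850351-10851266, 78 bp at chr2L:11807511-11808375 and 182 bp at chr3R:4468363-4468747. Only 2 of the 939 L(3)mbt peaks met a 2.2 peak that their BTB peak did not, against 33 of the 808 off-centre peaks. The rule fixes the gap at no less than 0, and wider L(3)mbt peaks have more room to meet 2.2.

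The BTB peaks on either side of a centred site were again centred sites in 404 of 1878 cases (21.5%, 19.7 to 23.4%), where centred sites made up 15.3% of all long-arm BTB peaks. They held 2.2 without L(3)mbt in 347 cases (18.5%, 16.8 to 20.3%), a class that made up 28.6% of all. Off-centre peaks were 318 of these neighbours (16.9%, 15.3 to 18.7%) against 13.2% of all, and peaks with neither were 701 (37.3%, 35.2 to 39.5%) against 35.9%. Each pair of adjacent centred sites is counted from both ends. The pattern was not one of centred sites alone. Every class had more neighbours of its own class than its share of all BTB peaks, at 32.6% for off-centre peaks, 19.0% against 7.10% for peaks with L(3)mbt and 2.2, 48.4% against 28.6% for 2.2 without L(3)mbt and 44.7% against 35.9% for neither. Neighbours with 2.2 and no L(3)mbt were likewise below their share of 28.6% in the other classes. They made up 14.2% for off-centre peaks, 24.2% for peaks with L(3)mbt and 2.2 and 23.3% for neither. Most centred sites nonetheless stood alone in the order of BTB peaks, with 578 flanked by other classes, 127 runs of 2, 22 runs of 3, 9 runs of 4 and 1 run of 5. The run of 5 lay on 3L between 1496414 and 1547034.

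The distance from a centred site to the nearest other one had a median of 26831 bp (24573 to 30176 bp). It was 40647 bp with centres at most 100 bp apart and 43074 bp with only the peaks scoring 200 or more in each list, settings that keep 705 and 628 sites. None lay within 1 kb of another, 20 within 2 kb (2.13%), 126 within 5 kb (13.4%, 11.4 to 15.7%) and 392 within 20 kb (41.7%, 38.6 to 44.9%). Each centred site has its own L(3)mbt peak, which leaves little room for distances under 1 kb. Within the other classes, the median distance was 10751 bp for the 808 off-centre peaks and 45469 bp for the 436 with L(3)mbt and 2.2. It was 13784 bp for the 2203 with neither and 10632 bp for the 1758 with 2.2 alone. Such distances also depend on the size of the class. From a centred site to the nearest BTB peak of any class the median was 5658 bp (5090 to 6120 bp), against 4894 bp (4654 to 5076 bp) for all long-arm BTB peaks. It was 5531 bp for peaks with neither and 5328 bp for those with 2.2 alone. It was shorter for off-centre peaks, at 2667 bp (2350 to 3142 bp), and for peaks with L(3)mbt and 2.2, at 2681 bp. The most isolated sites were chr2R:1264771-1265294, with no other BTB centre within 254506 bp, chr2L:2492579-2493637 at 92333 bp and chr2L:2585200-2585682 at 92299 bp. The last 2 are next to each other.

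Of 1189 windows of 100 kb on the long arms, 578 held a centred site (48.6%), and 5 held 5 or more. The fullest window, chr3R:12000001-12100000, held 7 among 27 BTB peaks, with BTB at the ceiling at 4 of the 7 and L(3)mbt scores of 141.6 to 1364. The next, chr2R:2000001-2100000, held 6 among 15 BTB peaks, with no 2.2 peak in the window, and each of its 6 L(3)mbt peaks was that of a centred site. In chr2R:2600001-2700000, 5 of 6 BTB peaks were centred sites, again with no 2.2 peak, with L(3)mbt scores of 213.1 to 358.5 and none at the BTB ceiling. These windows were picked for holding the most centred sites, so they are examples, and no number of full windows to be expected was computed.

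The share of centred sites was similar over the 5 arms, with overlapping intervals. Of the BTB peaks without 2.2, centred sites made up 21.5% for 2L (18.5 to 24.8%), 24.04% for 2R (21.2 to 27.1%), 23.3% for 3L (20.4 to 26.4%), 25.2% for 3R (22.6 to 28.1%) and 24.2% for X (21.3 to 27.3%). Their density ran from 6.18 per Mb (2L) to 9.19 per Mb (2R), with 7.40 for 3L, 8.50 for 3R and 8.31 for X. The X chromosome held 186 of them (19.8%, 17.4 to 22.5%), against 19.4% of all long-arm BTB peaks (18.5 to 20.5%). The median distance between centres ran from 45 bp on 2L to 51 bp on 3R and X, and the median L(3)mbt score from 321.1 on 2L to 353.4 on X. The median BTB score was highest on 2L, at 1136, where 36.9% of the centred sites were at the ceiling, and lowest on 3R, at 692.1. The share at the ceiling did not follow the same order. On 3R it was 31.6%, above the 30.4% on 2R, 27.4% on X and 27.1% on 3L.

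Along the arms, each divided into 10 parts of equal length, every part held centred sites. The number went from 3 in the last part of 3L, of 27 BTB peaks without 2.2, to 36 in the eighth part of 3R, of 103. The share of BTB peaks without 2.2 ran from 10.0% in the eighth part of 2R to 34.95% in the same part of 3R. Such parts are small, and the range was not compared with what counting error alone would give.

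**Figure D5:**
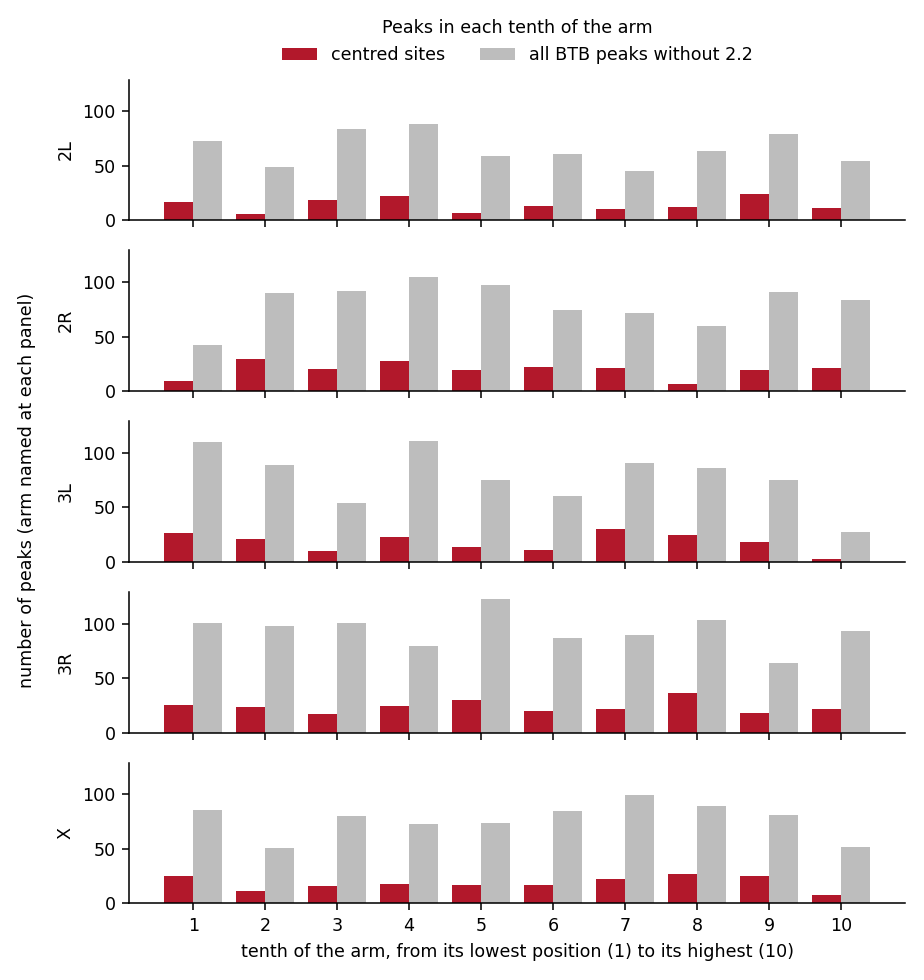
Number of peaks (y axis) in each of 10 equal parts of each long arm (x axis, from the lowest position to the highest), for centred sites (red) and all BTB peaks without 2.2 (grey). Centred sites occur in every part, from 3 in the last of 3L to 36 in the eighth of 3R.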

How the data were processed

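Chromatin from Kc167 cells was immunoprecipitated with 3 antibodies, 1 library each. Bowtie 0.12.5 is the aligner named, per the submitters' processing notes. Each deposited list gives a peak's position, name and score, the last being the caller's own value. Per the files, the names of the peaks follow MACS. No source used here names the caller's version, its settings or the genome build. Sequence names such as Uextra are those of Drosophila release 5, whereas the gene table provided is of release 6, so no gene, motif or sequence is given. Positions count from 1.

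Overlaps, distances between centres, Wilson intervals and order-statistic intervals were computed with Python 3.11.15, numpy 2.4.6, pandas 2.3.3 and scipy 1.17.1. Scores were ranked within each whole list, with those at or above 3100 tied. Sites were named by a fixed rule: both scores at the ceiling, the extremes of score, width, isolation and gap to 2.2, the limit of 200 bp, and the fullest windows. No L(3)mbt peak held more than 1 centred site, so none is named for that. The sites, classes and rules were chosen with earlier results of these data known, and the bands of score and width after the lists had been seen. The code was tested on simulated lists. No test was run, since there is 1 library per antibody. The alternatives were other limits on centres, overlap, score, width and 2.2.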

Additional observations from a re-analysis of the deposited data

Results flagged for a closer look

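The same rule applied to the sequences other than the 5 long arms, which the comparisons above do not use, found 58 further BTB peaks centred on L(3)mbt without 2.2. They are listed because the comparisons leave these sequences out. They are 5.10% of the 1138 BTB peaks without 2.2 there (3.96 to 6.53%), against 23.8% on the long arms (22.5 to 25.1%). Of the 58, 52 lay in the unplaced sequences U and Uextra, 4 on chromosome 4 and 2 in placed heterochromatin. U and Uextra held 1060 of the 1138 peaks, with a share of 4.91% (3.76 to 6.38%). On chromosome 4 the share was 14.3% of only 28 peaks (5.70 to 31.5%), an interval that includes the long-arm share. In placed heterochromatin it was 4.00% of 50 (1.10 to 13.5%). The median scores were 240.3 for BTB and 163.5 for L(3)mbt, and the BTB ceiling was reached by 4 of the 58, of which 3 were on chromosome 4.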

How the results depend on the processing

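Of 70 values (10 results under 7 alternatives), 50 stayed within the 95% interval of the value reported and 20 moved out of it. With centres at most 100 bp apart, the median BTB width was 675 bp, the median L(3)mbt width 1124 bp and the median distance between neighbouring sites 40647 bp, and the centred share was 40.4% of BTB peaks with L(3)mbt and 17.8% of all BTB peaks without 2.2. With centres at most 300 bp apart, the L(3)mbt width was 1167 bp, the distance 22488 bp, and these shares 63.4% and 28.1%. With peaks scoring 200 or more in each list, the median percentiles were 64.7 for BTB and 68.2 for L(3)mbt, against 55.6 and 54.4 for the 939 centred sites. The share at the BTB ceiling was 38.7%, the widths 774 bp and 1207 bp, and the distance 43074 bp. A 2.2 peak lay within 2 kb at 3.18% of these sites, and the centred share of BTB peaks without 2.2 was 19.5%. This setting leaves 628 sites. The share within 2 kb of a 2.2 peak was 2.21% when 2.2 peaks within 1 kb were barred, which removes such sites by construction, and 7.60% with peaks set to 400 bp. That last setting put the centred share of BTB peaks with L(3)mbt at 75.1%. Peaks of 400 bp meet only when their centres are less than 400 bp apart, which largely sets that share. A limit of 100 or 300 bp likewise lowers or raises the centred shares by construction. A minimum score of 200 by itself removes the lowest-ranked sites of each list, and it leaves fewer 2.2 peaks for a site to lie near. What else lay behind the moves was not tested. An overlap of 50% of the shorter peak, and an L(3)mbt peak without 2.2, moved none of the 10 results. No paired analysis was possible because there is 1 library per antibody. The unknown depth limits which weak peaks were listed, so the absence of a 2.2 peak is not the absence of 2.2.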
